A study of Mus musculus with 2 samples.

Results

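The lineage transcription factors of group 2 innate lymphoid cells (ILC2s), Gata3, Rora, Id2, Tcf7, Bcl11b, Ets1, Gfi1, Maf and Zbtb16, were examined by scRNA-Seq in lung ILC2s of WT and Pac1-/- mice. The 9 genes were taken as a named list, chosen with earlier results of these data known but by no threshold on a measured value, and all 9 were found among the 32285 genes counted in both libraries. PAC1 is a dual-specificity phosphatase encoded by Dusp2. The cells were sorted by the authors from lung as live, lineage-negative CD90.2+ ST2+ Sca-1+ cells after magnetic depletion, from mice of 6 to 8 weeks on the C57BL/6J background matched for age and sex, and 4 to 5 mice were pooled per genotype. No stimulus was given for these libraries in the labels. There was 1 library per genotype, so no difference between WT and Pac1-/- had a replicate check, no p-value was computed, and every 95% interval below covers counting error only. Since cells differ from one another by more than counting error, these intervals are too narrow as a guide to what another pool of mice would give.

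ILC2s are tissue lymphocytes that make IL-5 and IL-13 when alarmins such as IL-33 reach them, and they do so without an antigen receptor. GATA3 is the factor that defines the lineage and binds at the genes of the type 2 cytokines, while RORα, encoded by Rora, is a nuclear receptor required for ILC2 development. ID2 holds E proteins away from DNA and marks all innate lymphoid cells. TCF1 (Tcf7), PLZF (Zbtb16) and GFI1 act in progenitors or early ILC2s, BCL11B keeps ILC2s from taking on ILC3 features, ETS1 supports ILC2 expansion, and MAF is a bZIP factor found in several T cell and ILC subsets.

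The WT library held 10866 barcodes and the Pac1-/- library 9495, of which 8394 (77.3%) and 7087 (74.6%) passed a filter of 500 detected genes or more and mitochondrial UMIs of 10% or less (UMIs, unique molecular identifiers, each marking 1 captured molecule). The kept barcodes held 54579034 and 58338886 UMIs, with medians of 4186.5 and 5577 UMIs. Dusp2 was at 1419 UMIs in WT and 5 in Pac1-/-, which goes with the labels. The 8 ILC2 markers were each found in both libraries, in shares of barcodes that ran from 32.6% (Il17rb) to 91.9% (Il1rl1, encoding ST2) in WT and from 38.9% (Il17rb) to 94.8% (Il7r) in Pac1-/-. Il1rl1 was in 92.9% of Pac1-/- barcodes and Il7r in 89.3% of WT barcodes. Thy1 (CD90) was in 49.0% and 51.6%, and Ly6a (Sca-1), a marker of the sort, in 35.9% and 60.1%, at 100.4 and 213 CPM (CPM, UMIs scaled to a common library total of 1000000). Among WT barcodes 83.8% held a T cell receptor or CD3 transcript, and among Pac1-/- barcodes 89.7%, mostly as Trbc1, Trbc2 and Cd3g, while Cd4 was at 1 UMI in each library and Cd8a at 0. Hemoglobin Hba-a1 was at 27.8 CPM in WT and 102 CPM in Pac1-/-, and barcodes with at least 2 markers of 1 other cell type numbered 110 and 247. The libraries shared 29 barcode sequences, 15 of them among kept barcodes.

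The promoters of Gata3 and Rora are shown because these factors carried the largest share of the results below, and that of Il13 because its transcript was used to divide the cells. Each sequence gives the 250 bases before the start site in RefSeq (GRCm38.p6), 5′ to 3′ on the gene's strand, with matches to any of 5 motif strings in capitals: GATAA for GATA factors, AGGTCA for ROR, CTTTGA for TCF, CCGGAA for ETS and TGCTGA for MAF, on either strand. The Gata3 window lies at chr2:9878601-9878850 on the minus strand, the Rora window at chr9:68653536-68653785 on the plus strand, and the Il13 window at chr11:53634703-53634952 on the minus strand. The RefSeq start of Gata3 lies inside the longer GENCODE span of the gene.
Gata3: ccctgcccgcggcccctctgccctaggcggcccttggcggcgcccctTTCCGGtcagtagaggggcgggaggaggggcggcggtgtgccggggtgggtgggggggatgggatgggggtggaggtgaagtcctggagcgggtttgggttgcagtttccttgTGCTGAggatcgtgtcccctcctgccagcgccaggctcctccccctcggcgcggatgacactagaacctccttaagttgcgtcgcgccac
Rora: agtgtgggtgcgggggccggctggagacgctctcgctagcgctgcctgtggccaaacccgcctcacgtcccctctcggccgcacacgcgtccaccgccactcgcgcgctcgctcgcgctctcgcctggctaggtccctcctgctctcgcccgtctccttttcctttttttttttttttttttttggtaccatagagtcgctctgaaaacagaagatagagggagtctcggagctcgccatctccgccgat
Il13: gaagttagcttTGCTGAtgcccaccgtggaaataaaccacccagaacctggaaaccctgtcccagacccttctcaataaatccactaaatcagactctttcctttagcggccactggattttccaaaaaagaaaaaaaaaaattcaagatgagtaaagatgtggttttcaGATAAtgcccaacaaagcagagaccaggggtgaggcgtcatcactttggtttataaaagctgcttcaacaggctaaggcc
The Gata3 window held 1 ETS string 203 bases before the start site, on the opposite strand, and 1 MAF string at 90 bases. The Rora window held none of the 5. The Il13 window held the GATA string 80 bases before the start site and the MAF string at 239 bases. The Il5 window, not printed here, held 1 TCF string 241 bases before the start site, on the opposite strand, and no other of these strings. Over all 32851 promoter windows of the table, 22.6% held the GATA string, 14.0% ROR, 13.8% TCF, 12.03% ETS and 16.1% MAF. Of the 9 factors, 6 had windows in the table, 8 windows in all, since Tcf7 and Gfi1 had more than 1 start site. Among these 8, the GATA, ROR and TCF strings were each in 1 window and the ETS and MAF strings each in 2. Ets1, Maf and Zbtb16 had no entry. These are matches of letters only.

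The first question was how strongly each factor was expressed in the ILC2s of each genotype. Rora was the most abundant of the 9, with 2265 CPM in WT (95% interval 2252 to 2277) and 1686 CPM in Pac1-/- (1676 to 1697), which placed it 84th and 106th among all genes. Gata3 was at 1206 and 1035 CPM. Id2 was at 1171 and 1187 CPM, and Ets1 at 1199 and 934 CPM. These 4 factors thus lay within the 160 most abundant genes of both libraries. Bcl11b and Maf formed an intermediate level, with Bcl11b at 209 CPM in WT and 311 CPM in Pac1-/- and Maf at 188 and 222 CPM. Transcripts of Gfi1, Tcf7 and Zbtb16 were scarce. Gfi1 was at 32.5 and 32.9 CPM, Tcf7 at 22.1 and 20.3 CPM, and Zbtb16 at 8.96 and 10.4 CPM. In WT the Gata3 and Ets1 intervals overlapped (1197 to 1215 and 1190 to 1208 CPM), so that their order could not be told, whereas the other neighbours in the order differed beyond counting error. The order of the middle and scarce factors was the same in Pac1-/-, but Id2 there lay above Gata3. As 3′ tags, these levels do not scale with transcript length.

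**Figure D1:**
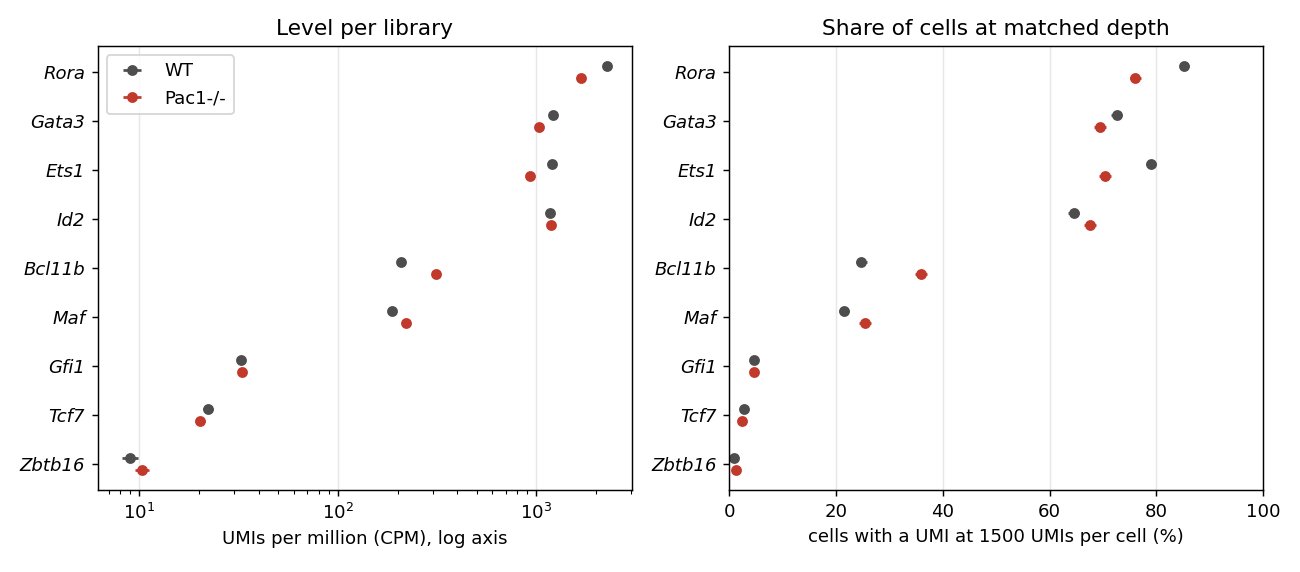
Level of the 9 factors in each library (left, CPM on a log axis, with 95% Poisson intervals) and share of cells with at least 1 UMI in cells thinned to 1500 UMIs (right, %, with 95% Clopper-Pearson intervals), WT in grey and Pac1-/- in red. Rora, Gata3, Ets1 and Id2 sit near or above 1000 CPM, and Gfi1, Tcf7 and Zbtb16 below 5% of cells.

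Position and overlap of the genes bear on these counts. In GENCODE vM21 (GRCm38), Gata3 spans chr2:9857078-9890034, Rora chr9:68653786-69388246, Id2 chr12:25093799-25097140, Tcf7 chr11:52252371-52283014, Bcl11b chr12:107910403-108003602, Ets1 chr9:32636221-32757820, Gfi1 chr5:107716657-107726036, Maf chr8:115682942-115707794 and Zbtb16 chr9:48654297-48836222. Gata3 shares its strand with 9230102O04Rik, which received 851 UMIs in WT and 503 in Pac1-/-, few beside the 65826 and 60376 UMIs of Gata3. Gfi1, by contrast, overlaps A430072P03Rik on the opposite strand, with 1189 and 1001 UMIs beside 1772 and 1922 UMIs of Gfi1, so that the level of Gfi1 is uncertain if strand was not used in counting.

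The second comparison was between the genotypes. Over the 12427 genes with at least 50 UMIs, the median gene stood 0.19 higher on the log2 scale in Pac1-/- than in WT. Ratios are given relative to this median gene. For the 9 factors over all kept barcodes the plain CPM ratio is given too. Rora, the nuclear receptor, was lower in the Pac1-/- library by 0.61 on the log2 scale (interval -0.63 to -0.60), that is 0.654-fold. Ets1 stood just inside the 1.5-fold limit with a log2 ratio of -0.55 (-0.57 to -0.53), and Gata3 was at -0.41 (-0.42 to -0.39). Bcl11b lay the other way, at 0.39 (0.35 to 0.42). Rora was the only 1 of 9 factors past 1.5-fold, in the direction in which 12.5% of all genes were past it, and 0 of 9 were past it upward, where 7.72% of all genes were. As plain CPM ratios none of the 9 passed, where 8.13% of all genes passed downward and 16.3% upward. Rora was then at -0.43, Ets1 at -0.36, Gata3 at -0.22 and Bcl11b at 0.57.

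The remaining factors differed little. Id2 was at -0.17 relative to the median gene and at 0.02 as counted, and Gfi1 likewise at -0.17 and 0.02, so that the direction of both turned with the scaling. Tcf7 was at -0.31 (-0.43 to -0.19), Maf at 0.05 (0.01 to 0.09) and Zbtb16 at 0.02 (-0.15 to 0.20), an interval that includes the median gene. As counted, Tcf7 was at -0.12, Maf at 0.24 and Zbtb16 at 0.21 (0.04 to 0.39). The median of the 9 was -0.17, with 6 below and 3 above the median gene, while the middle 50% of all genes ran from -0.31 to 0.28. Without barcodes of other cell types Rora was at -0.62, and in barcodes thinned to equal depth also at -0.62. In thinned cells without a T cell receptor or CD3 UMI it was at -0.59, and in those with 1 at -0.60. In the former Tcf7 was at -0.71 (-1.25 to -0.19, on 99 and 46 UMIs) and Gfi1 at 0.24 (-0.13 to 0.61), on the other side of the median gene from its value in all kept barcodes. Tcf7 was thus past 1.5-fold downward in those cells, for which no share of all genes is given.

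**Figure D2:**
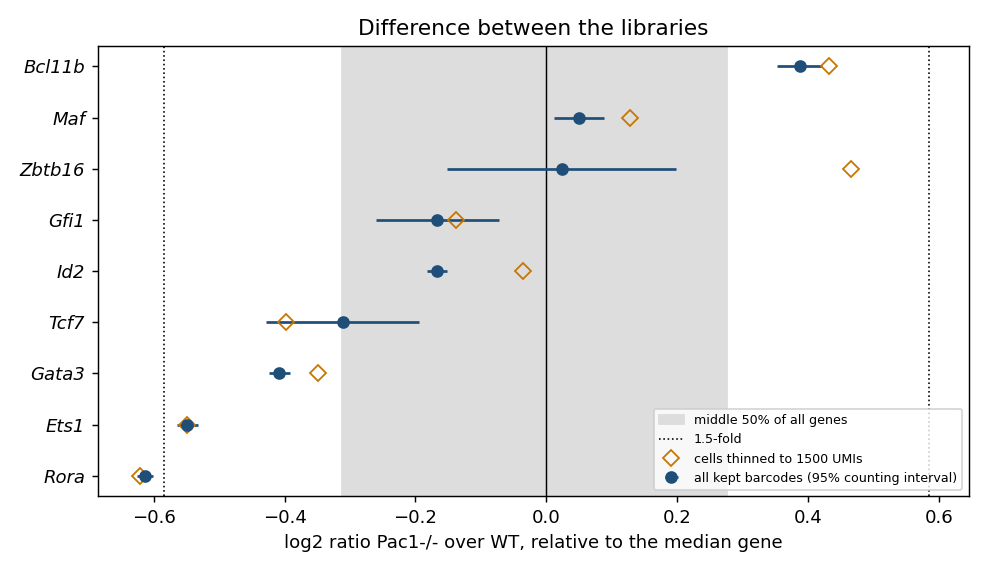
log2 ratio of Pac1-/- over WT for each factor, relative to the median gene, from all kept barcodes (filled circles, 95% counting intervals) and from cells thinned to 1500 UMIs (open diamonds), with the middle 50% of all genes shaded and 1.5-fold dotted. Only Rora lies past the dotted line, with Ets1 just inside it at -0.55, and Zbtb16 moves to 0.47 on thinning.

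Shares of cells were compared at matched depth, since a deeper cell shows a scarce transcript more often. UMIs were drawn at random from each cell down to 1500, which left 7634 WT and 6564 Pac1-/- cells and removed 760 and 523 shallower ones. The share with Rora was 85.2% in WT (84.4 to 86.0%) and 76.1% in Pac1-/- (75.02 to 77.1%). For Ets1 it was 79.1% and 70.3%, and for Gata3 72.5% and 69.4%. For Bcl11b it was 24.7% in WT (23.7 to 25.7%) against 35.9% in Pac1-/- (34.8 to 37.1%), and for Maf 21.5% and 25.4%. For Id2 the shares were 64.5% and 67.6%. Thus Rora, Ets1 and Gata3 were seen in fewer Pac1-/- cells and Bcl11b and Maf in more, in each case with intervals that did not overlap and on the side of their CPM ratios. The Id2 shares went against its relative ratio, and no order is read from them. Tcf7 (2.78% and 2.39%), Gfi1 (4.57% and 4.68%) and Zbtb16 (0.917% and 1.28%) had overlapping intervals. Before thinning, Rora was found in 94.3% and 92.5% of barcodes, Gata3 in 88.8% and 90.7%, and Bcl11b in 55.6% and 73.7%.

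B-like barcodes, with UMIs of at least 2 B cell genes and none of Il1rl1 or Il7r, served as a background, but there were only 5 in WT and 10 in Pac1-/- among the thinned cells. Gata3 was found in 0 of 5 and 0 of 10, which allows a share of up to 60% and 30% (3 counts of the total, the limit used wherever a count was 0), Rora in 0 of 5 and 1 of 10, and Id2 in 0 of 5 and 2 of 10. Their median full depth was 3098 and 4008.5 UMIs. Tcf7 and Zbtb16 were at 0 in these barcodes and Gfi1 as well. Bcl11b was in 0 of 5 and 0 of 10 and Maf in 0 of 5 and 1 of 10. Of all barcodes with UMIs of at least 2 B cell genes, whether or not they held Il1rl1 or Il7r, Gata3 was in 3 of 10 in WT and 8 of 25 in Pac1-/-, Rora in 3 of 10 and 9 of 25, Id2 in 2 of 10 and 10 of 25, and Bcl11b in 2 of 10 and 4 of 25. The upper limits of these shares were 65.2% and 53.5% for Gata3, 65.2% and 57.5% for Rora, and 55.6% and 61.3% for Id2, each below the share measured. For Bcl11b they were 55.6% and 36.1%, at or above it. For Tcf7, Gfi1, Zbtb16, Maf and Bcl11b in both libraries, the background that so few barcodes allow thus reaches the share measured, so their detection could not be separated from free RNA here. Ets1, which B cells use too, was found in 5 of 5 and 7 of 10.

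The factors also differed in how unevenly the cells held them. At a fixed depth, a transcript spread evenly over cells has a variance equal to its mean. For Rora the variance was 2.25 times the mean in WT and 2.50 times in Pac1-/-, and for Id2 it was 2.25 and 2.45 times. For Gata3 the ratio was 1.64 and 1.58, for Ets1 1.28 and 1.26, for Maf 1.26 and 1.38, and for Bcl11b 1.12 and 1.07. This ratio grows with the mean, so it does not rank factors of different abundance. Its excess over 1, divided by the mean, was 0.39 in WT and 0.64 in Pac1-/- for Rora, 0.39 in each for Gata3, 0.80 and 0.84 for Id2, 0.95 and 1.13 for Maf, 0.41 and 0.16 for Bcl11b, and 0.16 and 0.19 for Ets1. On this scale Maf was the most uneven of these 6 factors in both libraries, without a test. At least 3 UMIs of Rora were held by 51.9% of WT and 35.95% of Pac1-/- thinned cells, against 22.1% and 24.99% for Id2.

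Next, the factors were examined together in single cells. A thinned cell showed 3.56 ± 1.12 of the 9 factors in WT (SD over 7634 cells) and 3.53 ± 1.19 in Pac1-/- (6564 cells), and no cell showed more than 8. None of the 9 was seen in 22 WT and 38 Pac1-/- cells. For each of the 36 pairs, the number of cells with both genes was divided by the number expected if the genes were independent, and the median of this ratio was 1.01 in WT and 1.03 in Pac1-/-. It was above 1 in both libraries for 18 pairs and below 1 in both for 7. Gata3 and Rora were found together in 4842 WT and 3564 Pac1-/- cells, a ratio of 1.03 in each: Rora was seen in 87.4% of WT cells with Gata3 and 79.4% without, and in 78.3% and 71.1% in Pac1-/-. Id2 was seen in 66.8% of WT cells with Gata3 and 58.3% without, and in 68.8% and 64.8% in Pac1-/-. Gata3 with Rora and Gata3 with Id2 were the 2 pairs whose shares lay apart, upward, in both libraries.

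Bcl11b did not follow this pattern. It was seen in 24.2% of WT cells with Rora and 27.8% without, and in 35.0% and 38.8% in Pac1-/-, where the intervals overlapped. With Tcf7 it was rarer still in WT, at 17.0% of cells with a Tcf7 UMI and 24.9% without, a ratio of 0.69 on 36 cells, but in Pac1-/- these shares were 32.5% and 36.01%, with overlapping intervals and a ratio of 0.90 on 51 cells. Ratios far from 1 for Zbtb16 with Tcf7 (1.54 and 3.48) rested on 3 and 7 cells and are not read further.

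**Figure D3:**
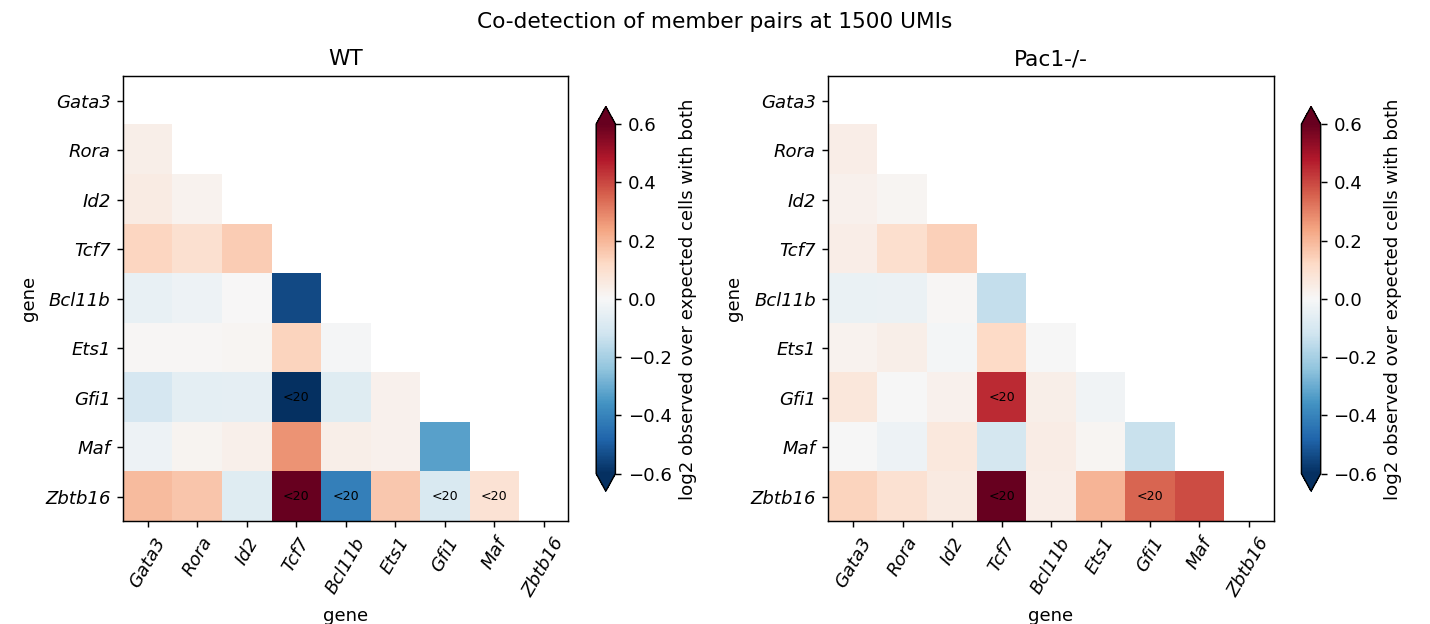
Co-detection of each pair of factors in cells thinned to 1500 UMIs, as the log2 of observed over expected cells with both genes, in WT (left) and Pac1-/- (right), with red above and blue below independence and "<20" marking pairs seen in under 20 cells. The pairs of Gata3, Rora and Id2 are slightly above independence, and the blue cell of Tcf7 with Bcl11b in WT is the ratio of 0.69.

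The third question was whether the factors differed between cells with and without type 2 cytokine transcripts. At 1500 UMIs, the cells with Il5 numbered 2534 in WT (33.2%) and 1267 in Pac1-/- (19.3%), and those with Il13 1074 (14.1%) and 594 cells (9.05%). A cell with Il5 or Il13 is here one with at least 1 UMI of it. Of the B-like barcodes, 0 of 5 in WT and 1 of 10 in Pac1-/- held Il5, and 0 of 5 and 0 of 10 held Il13. Of all barcodes with UMIs of at least 2 B cell genes, which may hold Il1rl1 or Il7r too, 3 of 10 and 1 of 25 held Il5, and 3 of 10 and 2 of 25 held Il13. These few barcodes allow a background share as high as those measured, so a single cytokine UMI could not be told apart from free RNA and is not read as expression by that cell. Levels here are CPM within thinned cells, compared as counted within a library. Rora was at 2780 CPM in WT cells with Il5 and 1780 CPM in those without, a log2 ratio of 0.64 (0.61 to 0.68). In Pac1-/- these levels were 2466 and 1336 CPM, a log2 ratio of 0.88 (0.83 to 0.93). Gata3 was at 1425 and 941 CPM in WT (0.60, 0.55 to 0.65) and at 1325 and 896 CPM in Pac1-/- (0.56, 0.50 to 0.63). Id2 was at 1294 and 921 CPM in WT (0.49) and at 1550 and 1058 CPM in Pac1-/- (0.55). Hence Gata3, Rora and Id2 were all higher in cells with Il5 in each library, and Rora was the only factor past 1.5-fold in both. In WT 4 of 9 factors were past 1.5-fold upward (Gata3, Rora, Tcf7 and Zbtb16), against 2.98% of all genes, and in Pac1-/- 1 of 9, against 3.99%. The WT calls moved with the setting. Gata3 and Zbtb16 were lost at 1000 UMIs, and Tcf7 at 3000 UMIs and with status from all UMIs. Zbtb16 was not called without barcodes over 2 times the median UMIs. Gata3, Rora and Tcf7 were lost in the deeper barcodes alone, and Tcf7 in the shallower ones too (0.60, -0.06 to 1.23). Zbtb16 was not tested in either. Downward it was 0 of 9 in each library, where 9.64% of all genes in WT and 10.2% in Pac1-/- were past the limit.

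The other 6 factors went either way with Il5. Ets1 had log2 ratios of 0.25 (0.20 to 0.30) in WT and 0.26 (0.19 to 0.34) in Pac1-/-. Bcl11b was lower in cells with Il5, at 171 against 215 CPM in WT (-0.34, -0.47 to -0.20) and 280 against 312 CPM in Pac1-/- (-0.15, -0.29 to -0.02). Maf was at -0.11 (-0.25 to 0.02) and -0.23 (-0.39 to -0.07), and Gfi1 at -0.11 in each library with intervals that include 0. Tcf7 was at 0.62 (0.22 to 1.004) in WT and 0.51 (-0.02 to 1.02) in Pac1-/-, and Zbtb16, on few UMIs, at 1.26 (0.54 to 1.98) and 0.35 (-0.41 to 1.06).

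Cells with Il5 were deeper before thinning, with medians of 5502 against 4151.5 UMIs in WT and 7234 against 5619 in Pac1-/-. Among barcodes below their library's median depth, Rora was at 0.71 in WT and 1.03 in Pac1-/- and Gata3 at 0.70 and 0.63. Among those above it, Rora was at 0.52 and 0.73 and Gata3 at 0.45 and 0.47, so that both stayed higher in cells with Il5 at either depth. In the deeper barcodes no factor tested was past 1.5-fold in both libraries, and Zbtb16 was not tested in WT. Summed T cell markers were lower in cells with Il5 (648 against 757 CPM in WT, 839 against 966 CPM in Pac1-/-), and their part in the result was not tested.

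Graded by the number of Il5 UMIs, Rora went in WT from 1780 CPM at 0 UMIs through 2340 at 1 and 2850 at 2 to 3357 CPM at 3 or more. In Pac1-/- it went from 1336 through 1964 and 2626 to 3306 CPM. The genotypes thus stood furthest apart in cells without Il5, and at 3 or more Il5 UMIs (845 WT and 369 Pac1-/- cells) the Rora intervals overlapped. Gata3 went from 941 to 1697 CPM in WT and from 896 to 1689 CPM in Pac1-/-. Id2 went from 921 to 1549 CPM in WT and from 1058 to 2058 CPM in Pac1-/-, here with Pac1-/- on the higher side. Bcl11b went down, from 215 to 144 CPM in WT and from 312 to 240 CPM in Pac1-/-. Read the other way, the share with Il5 went from 15.8% at no Rora UMI to 43.5% at 3 or more in WT, and from 8.59% to 32.3% in Pac1-/-.

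**Figure D4:**
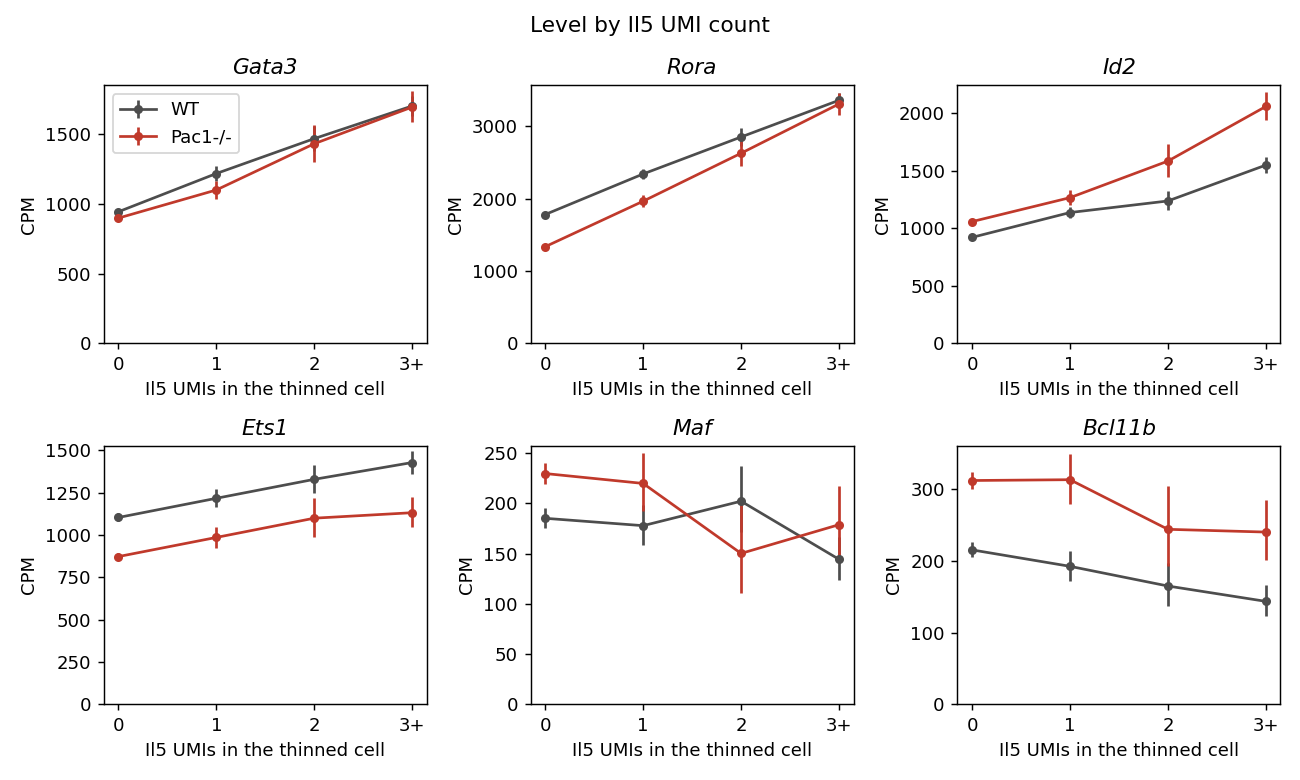
Level of 6 factors (CPM in thinned cells, 95% Poisson intervals) by the number of Il5 UMIs in the cell, WT in grey and Pac1-/- in red. Gata3, Rora and Id2 climb in both libraries, Rora meets between genotypes at 3 or more UMIs (3357 and 3306 CPM), and Bcl11b declines.

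Il13 gave differences of the same sign for Rora, Gata3 and Id2. Rora was at 2717 against 2013 CPM in WT (0.43, 0.38 to 0.48) and at 2553 against 1455 CPM in Pac1-/- (0.81, 0.75 to 0.88), so that its difference was larger in the Pac1-/- library. Gata3 was at 0.36 (0.30 to 0.43) and 0.41 (0.32 to 0.50), and Id2 at 0.35 (0.28 to 0.42) and 0.51 (0.43 to 0.59). Ets1 was at 0.04 and 0.08 with intervals that include 0. Cells with Il13 were deeper as well, with medians of 5064.5 against 4352.5 UMIs in WT and 7268 against 5697.5 in Pac1-/-. Rora was at 0.60 in WT and 1.05 in Pac1-/- among barcodes below the median depth, and at 0.27 and 0.61 among those above it. Summed T cell markers were at 644 against 733 CPM in WT and 835 against 952 CPM in Pac1-/-, and their part in the result was not tested. Past 1.5-fold upward were 1 of 9 factors in WT (Tcf7, 0.62), against 1.48% of all genes, and 1 of 9 in Pac1-/- (Rora), against 3.6% of all genes. The WT call of Tcf7 was lost at 1000 UMIs, at 3000 UMIs and with status from all UMIs. It was also lost below the median depth (0.53, -0.38 to 1.33) and above it (0.60, -0.03 to 1.19).

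Cells with both cytokines, 548 in WT and 248 in Pac1-/-, stood further from the 4574 and 4951 cells with neither. Rora was at 3128 against 1722 CPM in WT (0.86, 0.80 to 0.92) and at 2976 against 1272 CPM in Pac1-/- (1.23, 1.13 to 1.32). Gata3 was at 0.77 and 0.69, Id2 at 0.64 and 0.88, and Tcf7 at 1.02 (0.36 to 1.64) and 1.03 (0.04 to 1.89). These 4 of 9 factors were past 1.5-fold upward in both libraries, where 5.3% of all genes in WT and 5.67% in Pac1-/- were. Tcf7 rested on 27 UMIs in WT and 12 in Pac1-/- in cells with both cytokines, and its detection could not be separated from free RNA above. No split by full depth and no other setting is given for these classes. How far the deeper barcodes of cells with Il5 or Il13 carry this count was not tested. Nearly all cells with both cytokines held Rora, 96.9% in WT and 98.0% in Pac1-/-. Bcl11b was at -0.56 in each library, with intervals from -0.84 to -0.29 in WT and from -0.90 to -0.23 in Pac1-/-, just short of the limit.

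Set side by side within these classes, the genotype difference of Rora was not the same in each class. In cells with neither cytokine it was -0.59 on the log2 scale (-0.63 to -0.55), taken as Pac1-/- over WT relative to the median gene of that class, in cells with Il5 alone -0.31 (-0.37 to -0.25), in cells with both -0.11 (-0.21 to -0.01), and in cells with Il13 alone -0.07 (-0.18 to 0.04). The median gene itself lay at 0.16, 0.11, 0.04 and 0.04 in these classes. As counted, without that shift, Rora was at -0.44 (-0.48 to -0.40) with neither, -0.20 (-0.25 to -0.14) with Il5 alone, -0.07 (-0.18 to 0.03) with both and -0.02 (-0.13 to 0.08) with Il13 alone, so that the interval for cells with both reached 0 on this scale. Ets1 went from -0.49 in cells with neither to -0.35 in cells with both relative to the median gene, but as counted it was nearly level over the 4 classes, at -0.34 with neither, -0.33 with Il5 alone, -0.33 with Il13 alone and -0.31 with both. Bcl11b was on the higher side in all 4 classes, from 0.10 (-0.24 to 0.43) with Il13 alone to 0.62 (0.44 to 0.81) with Il5 alone. With Il5 alone it was past 1.5-fold, but no share of all genes is given for that class. Id2 was at 0.06 (0.01 to 0.11) with neither and 0.42 (0.29 to 0.56) with both. Relative to the median gene, Gata3 was at -0.22 with neither, -0.20 with Il5 alone, -0.19 with both and -0.03 with Il13 alone. The last interval, -0.18 to 0.12, includes the median gene. As counted, Gata3 was at -0.06, -0.09, -0.15 and 0.02 in the same order. Cells with neither cytokine made up 59.9% of WT and 75.4% of Pac1-/- thinned cells, so the pooled ratios weigh the classes unequally.

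**Figure D5:**
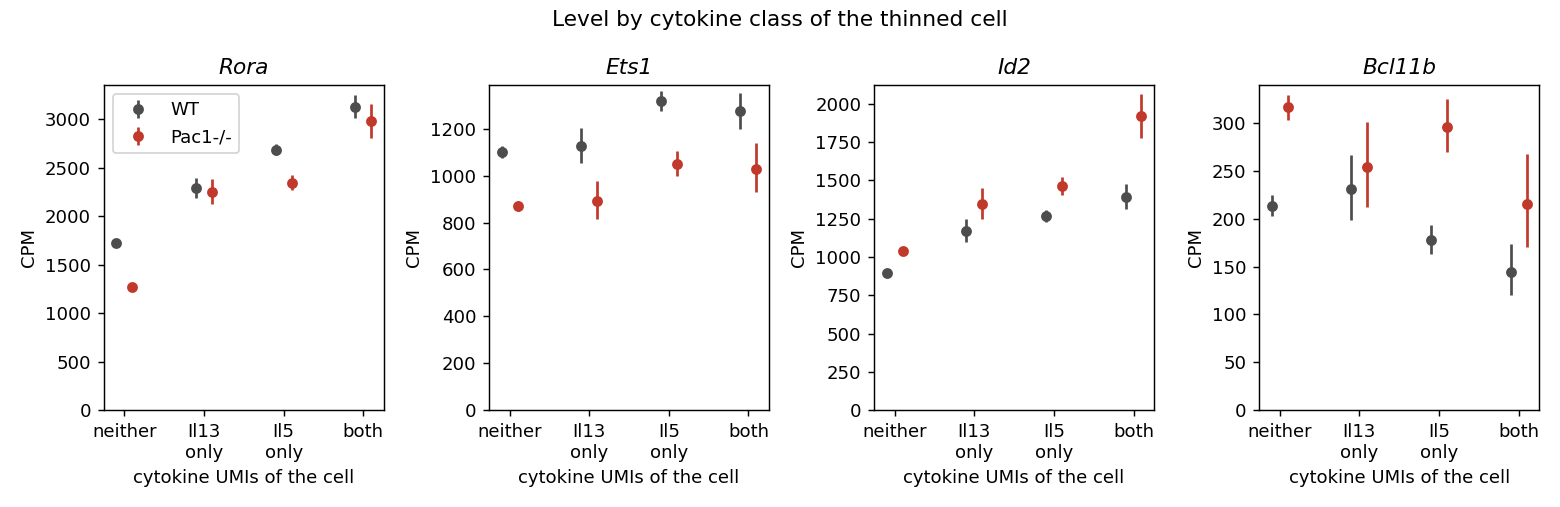
Level of Rora, Ets1, Id2 and Bcl11b (CPM in thinned cells, 95% Poisson intervals) in cells with neither cytokine, Il13 alone, Il5 alone and both, WT in grey and Pac1-/- in red. The Rora points stand apart in cells with neither (1722 and 1272 CPM) and overlap in cells with both, while Ets1 keeps its distance.

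IL-17A marks ILC2s with inflammatory, ILC3-like features, and few cells held its transcript. At 1500 UMIs there were 14 WT (0.183%) and 16 Pac1-/- cells (0.244%) with Il17a, and 50 and 35 when all UMIs of a thinned barcode were read. Over the latter, Rora was at 1787 against 2114 CPM in WT (-0.24, -0.50 to 0.00) and at 2248 against 1551 CPM in Pac1-/- (0.54, 0.26 to 0.80). For these 50 and 35 cells the levels were read at 1500 UMIs but the status was not, so deeper barcodes had more chance to enter. Their depth is not given, and its part in the result was not tested. Gata3 was at -0.22 (-0.58 to 0.12) in WT and at 0.53 (0.18 to 0.86) in Pac1-/-, and Ets1 at -0.05 (-0.37 to 0.26) and 0.60 (0.25 to 0.94). In the 16 Pac1-/- cells found at matched depth, Rora was at 0.30 (-0.15 to 0.72), Gata3 at 0.58 (0.05 to 1.05) and Ets1 at 0.69 (0.17 to 1.17), so the interval of Rora includes 0 there. In the 14 WT cells the intervals of all 3 include 0, with Rora at -0.47 (-1.02 to 0.03). The difference between the libraries was not tested. Summed T cell markers were at 571 against 721 CPM in WT and 875 against 942 CPM in Pac1-/-. Their part in the result was not tested. A Tcf7 UMI was held by 3 of 50 such cells in WT and 5 of 35 in Pac1-/-. Zbtb16 was in 0 of 50 in WT, which allows a share of up to 6%, and in 1 of 35 in Pac1-/-, and Gfi1 in 1 cell of each. Past 1.5-fold upward were 0 of 9 factors in WT, against 1.71% of all genes, and 2 of 9 in Pac1-/- (Tcf7 and Ets1), against 3.22%. Which factors these were changed with the setting. In Pac1-/- it was Ets1 alone with status and levels at 1500 UMIs (against 2.48% of all genes), and no factor at 1000 UMIs. Gata3, Rora, Tcf7 and Maf passed there at 3000 UMIs, and Rora and Tcf7 with at least 2 Il17a UMIs. Without barcodes over 2 times the median UMIs, Ets1 passed upward in Pac1-/- and Id2 downward in WT. Zbtb16 passed upward in WT at 1000 UMIs. Except at 1500 UMIs, no share of all genes is given for these settings, and their calls are not read further.

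A split by Il18r1, a gene of ILC progenitors, concerned 266 WT and 190 Pac1-/- cells. Tcf7 was at 40.1 against 19.3 CPM in WT (1.06, 0.22 to 1.79) and at 24.6 against 16.9 CPM in Pac1-/- (0.54, -0.80 to 1.61), on few UMIs. It alone was past 1.5-fold upward in WT, against 1.87% of all genes, and no factor was in Pac1-/-, against 2.2%. Rora was higher in cells with Il18r1 too, at 0.37 (0.28 to 0.45) in WT and 0.45 (0.33 to 0.56) in Pac1-/-. Gata3 was at 0.32 (0.19 to 0.44) and 0.22 (0.05 to 0.38). A split by T cell receptor or CD3 UMIs put 0 of 9 factors past 1.5-fold in either library. Upward, 1.55% of all genes were past it in WT and 1.19% in Pac1-/-, and downward 0.524% and 1.1%.

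The genes whose counts followed the factors most closely from cell to cell were named by Pearson's r over the 7634 WT and 6564 Pac1-/- thinned cells, which share their library and depth within each value. Rora had the highest values, with Hilpda (0.37 in WT and 0.44 in Pac1-/-), Nfkb1 (0.37 and 0.39) and Vps37b (0.38 and 0.37). Gata3 was closest to Hilpda (0.25 and 0.25), Rgs2 (0.25 and 0.22) and Rora itself (0.24 and 0.22). Id2 was closest to H3f3b (0.24 and 0.19), Rgs2 (0.25 and 0.17) and Rgs1 (0.18 and 0.16). Ets1 reached 0.11 and 0.13 with Rora, and for Bcl11b and Maf no gene exceeded 0.06 in both libraries.

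The levels of 39 other transcription factors of ILC development and identity were compared by the same rule between genotypes. Of these, 32 had at least 50 UMIs, and 4 were past 1.5-fold upward (against 7.72% of all genes) and 8 downward (against 12.5%) in Pac1-/-, with a median of -0.14 relative to the median gene. Sox4, an HMG-box factor, was at 4.89 CPM in WT and 14.8 CPM in Pac1-/- (1.41, 1.21 to 1.61), Id3 at 2.05 and 4.22 CPM (0.85), and Lef1, the relative of TCF1, at 14.0 and 24.7 CPM (0.63). Tox2 was at 0.62 with an interval from -0.05 to 1.31, and so was not counted as past the limit. Id1, at 2.91 and 4.99 CPM (0.59, 0.30 to 0.88), was counted. On the lower side were Rorb, on 46 and 12 UMIs (-2.22), Tox at 162 and 89.8 CPM (-1.04), Runx3 at 242 and 139 CPM (-0.99) and Nfil3 at 115 and 71.9 CPM (-0.87). Tox and Nfil3 act at the first steps of ILC development, and Runx3 in ILC1s and ILC3s. Tbx21, Eomes, Gata1, Gata2, Gfi1b, Bcl11a and Zbtb32 had under 50 UMIs in both libraries together, with Gfi1b and Zbtb32 at 0, so that Tbx21 and Eomes, the factors of ILC1s and NK cells, were near 0.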

How the data were processed

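Lung ILC2s were profiled by droplet 3′ scRNA-Seq (10x Genomics, v3.1), with 1 library per genotype and 13000 cells loaded. The deposited values are raw UMI counts per gene and barcode, which the authors made with Cell Ranger on the mm10 genome. The submitters' notes name version 6.1.1 and the file header 4.0.0, and the annotation release is not given in the sources used here. Deposited barcodes had at least 500 UMIs.

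Analyses used Python 3.11.15, numpy 2.4.6, scipy 1.17.1, pandas 2.3.3 and matplotlib 3.10.9. Barcodes with at least 500 genes and at most 10% mitochondrial UMIs were kept. Exact 95% intervals were Poisson for CPM, conditional binomial for ratios and Clopper-Pearson for shares. A factor counted as past the limit when its ratio was 1.5-fold or more with an interval off the median gene (between libraries) or off 0 (within a library). Cells were thinned without replacement to 1500 UMIs, the greatest depth tried that kept 90% of each library. Over 20 repeated thinnings, the share of cells with Gata3 ran from 71.5 to 73.3% in WT and from 67.8 to 69.6% in Pac1-/-. No doublet caller was run; leaving out barcodes over 2 times the median UMIs (1801 WT and 1375 Pac1-/-) was tried instead. The 9 factors, the 39 others, the markers and the motif strings were chosen with earlier results of these data known. All 9 factors were named. Of the other factors, those under 50 UMIs, the 4 highest and 4 lowest ratios, and Id1, also past the limit, were named. For each factor in at least 10% of thinned cells, the 3 genes with the highest smaller r were named, among genes in at least 5% of cells. GENCODE vM21 held 99.6% of the gene identifiers. The code was tested on simulated data.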

Additional observations from a re-analysis of the deposited data

Results flagged for a closer look

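The barcodes left out by the filter, 2472 in WT and 2408 in Pac1-/- with medians of 599 and 596 UMIs, entered the comparisons between libraries only in the setting with all deposited barcodes and held the factors too. Their summed level of the 9 factors was 5727 CPM in WT and 4731 CPM in Pac1-/-, against 6301 and 5438 CPM in kept barcodes. Rora was at 2085 and 1430 CPM in them, so that Pac1-/- was again the lower library. Ets1, at 1520 and 1123 CPM, was above its level in kept barcodes, and Id2, at 786 and 829 CPM, was below it.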

How the results depend on the processing

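Between libraries, 1 factor (Rora) was past 1.5-fold downward and 0 upward. The downward count was 0 with CPM ratios as counted, 2 without barcodes with T cell receptor UMIs (Rora and Gfi1; few and shallow barcodes remained; 10.8% of all genes; Gfi1 was at 0.24 in thinned cells without such a UMI) and 3 at a smaller fold limit (Gata3, Rora and Ets1; 22.8% of all genes). The upward count was 1 in thinned cells with no Il5, Il13 or Il17a (Zbtb16, on 29 and 68 UMIs; 6.53% of all genes) and 1 at the smaller limit (Bcl11b; 19.5% of all genes). The median ratio of the 9 factors (-0.17) was 0.020 as counted, the 1 change of direction, and -0.24 with 1000 to 2500 genes and under 5% mitochondrial UMIs, -0.14 in thinned cells, -0.20 without other cell types, -0.40 without T cell receptor barcodes and -0.13 without cytokine transcripts. By Il5 status, the count of factors past 1.5-fold upward in both libraries was 1 (Rora), but 2 at 3000 UMIs and 2 without barcodes of very many UMIs (Gata3 and Rora in each), and 3 with at least 2 Il5 UMIs and 3 at the smaller limit (Gata3, Rora and Id2 in each). By full depth, a split added after seeing the data, it was 2 in the shallower barcodes and 0 in the deeper ones. By Il13 status it was 0, but 3 at the smaller limit and 1 (Rora) in the shallower barcodes. No share of all genes is given for these other settings by Il5 or Il13 status. Their counts are therefore not read as results about the factors. The cause of these changes was not tested. No paired analysis was possible because each genotype had 1 library. Leaving out a replicate was not possible for the same reason. Depth limits the results on Tcf7, Gfi1 and Zbtb16 and on cells with Il17a.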
